A study of Drosophila melanogaster with 2 samples.

Results

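The binding of vvl-eGFP was examined at 32 genes that neurons need in order to signal, out of 13945 protein-coding genes on the 6 chromosome arms of the Drosophila melanogaster genome. The genes were chosen by name, as 2 RNA-binding proteins, 10 proteins of synaptic vesicle release, 6 proteins that make or load transmitters, 11 channel and pump subunits and 3 adhesion or cytoskeleton proteins. All 32 were found in the Ensembl annotation. Chromatin immunoprecipitation with an antibody against GFP was done on whole embryos collected from 0 to 24 h of age, as 2 biological replicates of 1 group, from separate biosamples of the same strain. The strain, vvl-GFP, is transgenic and makes the POU-domain transcription factor ventral veins lacking (vvl) fused to eGFP. The labels do not give the promoter of the fusion or say whether untagged vvl remains, and sex was not collected. Control chromatin was not analysed here. All cell types of the embryo were in each sample, so fewer cells with binding at a gene and weaker binding per cell cannot be told apart. Of the authors' peak lists, the conservative one was used, which holds 8309 peaks whose rank was kept at an irreproducible discovery rate (IDR) of 0.01 or less. A gene was counted as having a peak where the summit, the peak's highest point, lay in its body or within 2 kb of it.

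Neurons release transmitter when a calcium channel opens at the active zone and vesicles there fuse with the membrane through a complex of SNARE proteins. Voltage-gated sodium and potassium channels carry and end the electrical signal that opens the calcium channel, and enzymes and vesicular transporters decide which transmitter a neuron uses. Many of these genes are switched on as neurons differentiate, and RNA-binding proteins of the ELAV family shape their transcripts in the fly. vvl belongs to the POU family, whose proteins bind the octamer ATGCAAAT, and is known to act in some neurons, in midline glia and in the trachea.

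The sequences around 5 summits are shown because they hold the strongest summits of elav and fne and examples of both POU words found in the set. Each is the 201 bases centred on the summit, read 5′ to 3′ on the strand of the gene, from the RefSeq copy of the Release 6 genome (dm6). Capitals mark any of 12 words that were searched on both strands. They were the POU words ATGCAAAT (the octamer), ATGCTAAT and ATGCATAT, the homeodomain word TAATTA, and the promoter words TATCGATA and GGTCACAC. Further words were the GAGA word GAGAGAG, the word ACACTG, the Zelda word CAGGTAG and the Sox word ACAATG. AACATGTA and TAAACGTA were included as the octamer shuffled and reversed. A sequence without capitals holds none of them.
elav promoter summit, X:523367-523567, minus strand: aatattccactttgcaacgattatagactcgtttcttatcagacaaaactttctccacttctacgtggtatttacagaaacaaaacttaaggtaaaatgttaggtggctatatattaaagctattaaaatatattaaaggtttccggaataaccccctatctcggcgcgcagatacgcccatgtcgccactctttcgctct
elav intron summit, X:522523-522723, minus strand: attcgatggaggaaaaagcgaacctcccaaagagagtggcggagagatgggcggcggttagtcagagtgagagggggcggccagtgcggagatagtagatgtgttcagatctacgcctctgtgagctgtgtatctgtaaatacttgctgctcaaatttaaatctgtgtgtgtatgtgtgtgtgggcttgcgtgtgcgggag
fne intron summit, X:12925918-12926118, plus strand: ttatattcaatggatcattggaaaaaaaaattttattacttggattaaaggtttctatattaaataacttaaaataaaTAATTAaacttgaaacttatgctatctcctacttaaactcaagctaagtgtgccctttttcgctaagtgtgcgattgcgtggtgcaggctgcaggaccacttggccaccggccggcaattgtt
VGlut upstream summit, 2L:2398462-2398662, plus strand: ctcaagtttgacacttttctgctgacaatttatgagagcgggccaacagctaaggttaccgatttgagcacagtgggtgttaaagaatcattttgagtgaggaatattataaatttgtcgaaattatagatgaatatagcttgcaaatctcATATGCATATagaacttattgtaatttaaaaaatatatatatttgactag
Shal downstream summit, 3L:19566168-19566368, minus strand: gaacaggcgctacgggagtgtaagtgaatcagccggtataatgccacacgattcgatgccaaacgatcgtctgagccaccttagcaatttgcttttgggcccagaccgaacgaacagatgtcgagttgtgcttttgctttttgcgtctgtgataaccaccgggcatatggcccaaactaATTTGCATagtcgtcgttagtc
The word in capitals is the homeodomain word TAATTA at fne, overlapping copies of ATGCATAT on opposite strands at VGlut, and the octamer, written there as its reverse complement, at Shal.

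A summit was found at 18 of the 32 neuronal genes (56.2%), against 6556 of all 13945 protein-coding genes (47.0%). A longer window can hold more summits, and the neuronal genes had a median window of 33.7 kb, against 6.17 kb for all protein-coding genes. Each neuronal gene was therefore set beside the 200 other protein-coding genes nearest to its place in the order of window lengths. For Sh (143 kb) and Snap25 (229 kb), the longest of the set, these were the 200 longest, of 67.3 to 1970 kb. Their match in length is therefore loose. From the shares in those genes, 22.1 of the 32 would hold a summit (69.0%), so the neuronal genes were 4.09 below genes of their length. The gap was wider, as a ratio, for the number of summits. The 32 windows held 34 gene-summit pairs from 33 distinct summits, while the mean counts of length-matched genes add up to 86.6. In density this was 2.34 summits per 100 kb of the merged windows, against 6.21 per 100 kb of the 6 arms. Of the 32 genes, 6 had more summits than the median of their length-matched genes, 6 had as many and 20 had fewer. These are descriptions of a hand-picked list and were given no test.

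**Figure D1:**
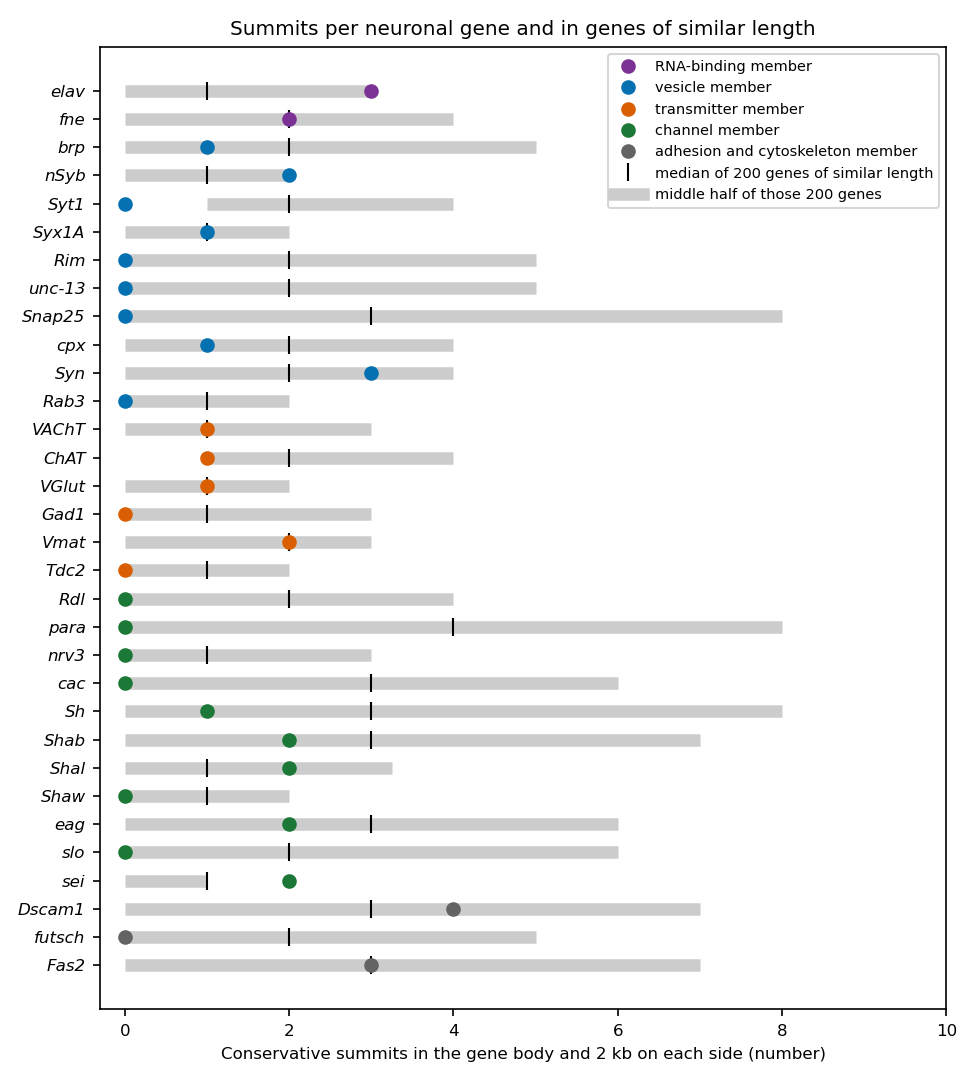
Number of conservative summits in the gene body and 2 kb on each side of each neuronal gene (dots, coloured by role), with the median (black tick) and the interquartile range (grey bar) of 200 protein-coding genes of similar length. The dots of 20 genes lie left of their tick, and no gene of the set had more than 4 summits.

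The strongest peaks of the set were at elav, 1 of the RNA-binding genes. Both elav and fne held a summit, 2 of 2 against 1.40 from genes of their length. elav encodes the nuclear RNA-binding protein that is used as a general marker of neurons in the fly. It had 3 summits within 2 kb of its 5' end. The strongest, at X:523324-523654, lay 241 bp upstream of that start, with a signal of 921.9 (the authors' value per peak, of unstated scale) and rank 127 of all conservative peaks. Its signal was 527 in replicate 1 and 381 in replicate 2, at ranks 120 and 169 of the replicates' own ranked lists. It was among the strongest peaks in both samples. The elav start is shared with the noncoding RNA gene lncRNA:enrr, and the whole region lies inside arg, the arginase gene on the other strand, so the annotation does not assign the peak to 1 gene. A summit in the first intron of elav, at X:522488-522745 and 603 bp from the start, ranked 723, with signals of 207 in replicate 1 and 178 in replicate 2. The third, at X:524339-524734, lay 1.31 kb upstream and ranked 3727. It was the weakest of the 3 in both replicates, at 93.4 in replicate 1 and 60.2 in replicate 2. Of the 200 genes of similar length to elav, 30.0% had 3 or more summits.

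fne, a second gene of the ELAV family, had 2 summits and neither was near a start. Both were in the second intron, 5.97 and 8.53 kb from the nearest fne start. The farther one, at X:12925877-12926089, was the stronger, with rank 1503 and signals of 151 in replicate 1 and 115 in replicate 2. The nearer one, at X:12923259-12923654, ranked 7427 and overlapped a peak called in replicate 1 but none called in replicate 2. At fne, 55.0% of the 200 genes of similar length had 2 or more summits.

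**Figure D2:**
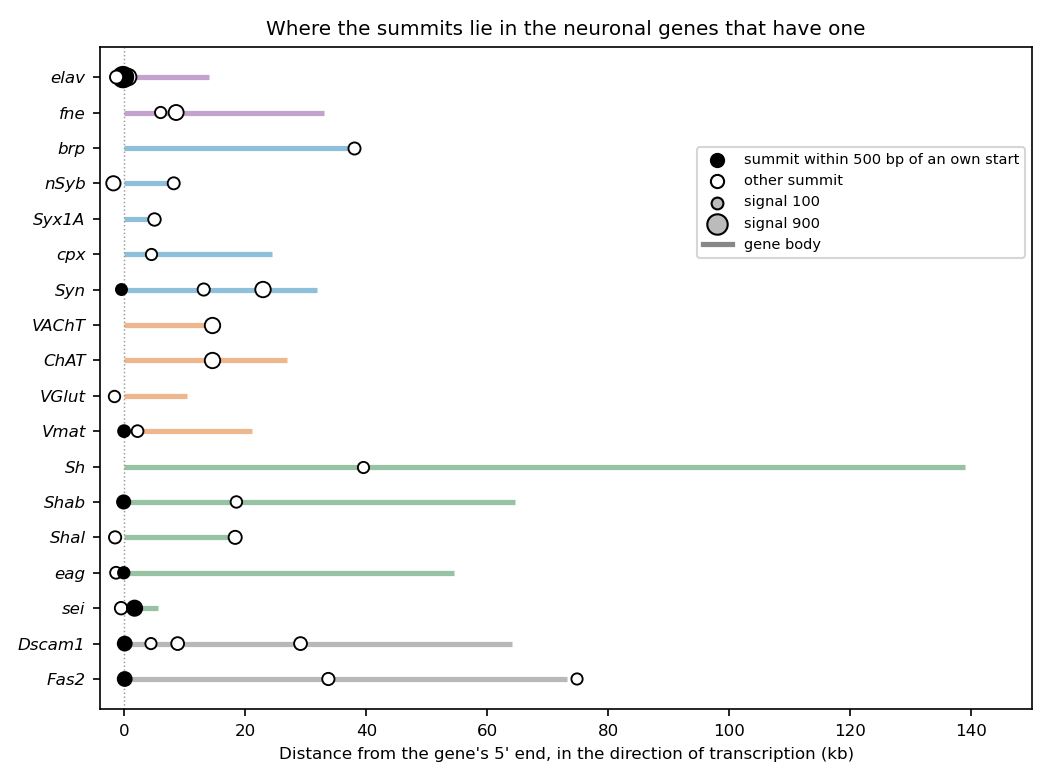
Position of every summit in the 18 neuronal genes that had one, as the distance in kb from the 5' end of the gene in the direction of transcription; lines are gene bodies, filled circles are summits within 500 bp of a start of the gene, and circle area grows with the square root of the signal. The 8 filled circles belong to 8 genes, and the largest is at elav.

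Of the genes for vesicle release, 5 of 10 held a summit, against 6.87 from genes of their length. They were Syn, nSyb, brp, Syx1A and cpx, and together they had 8 summits. Syn, which encodes the vesicle-binding phosphoprotein synapsin, had 3. Its strongest, at 3R:10213548-10213764 in the eighth intron and 22.9 kb from the Syn start, ranked 1225, with signals of 176 in replicate 1 and 123 in replicate 2. That summit lay 632 bp from a start of Timp, a metalloproteinase inhibitor gene inside Syn. A further intronic summit of Syn lay 9262 bp from the Timp start and ranked 5511. The summit at the start of Syn itself, 495 bp upstream, was the weakest of all 33, with rank 7700 and a signal of 77.67. It overlapped no peak in the list of either replicate.

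Of the other 5 summits of this group, 3 were nearest to the start of a neighbouring gene. nSyb encodes the vesicle SNARE synaptobrevin and had a summit on either side. The upstream one, at 3L:1639500-1639670, lay 130 bp from the start of Bgb and ranked 2128. It was stronger in replicate 2, at 142, than in replicate 1, at 79.3, as it was for 7 of the 31 summits with a signal in both. The downstream one lay 307 bp from the start of GC and ranked 5890. brp encodes the Bruchpilot scaffold of the active zone. Its only summit, at 2R:9541579-9541974, was past the 3' end and nearest to the start of CG1888. Syx1A encodes the syntaxin of the plasma membrane. Its summit, at 3R:24100673-24101068, was past the 3' end, in an intron of eIF4EHP, and ranked 4872. A further 2 peaks in the window of Syx1A reached the IDR threshold in the ranked list but are missing from the conservative list, and are left out of these counts. cpx, which encodes the SNARE regulator complexin, had 1 intronic summit of rank 7418 that overlapped no peak in either replicate's list.

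No summit lay in the windows of Syt1, Rim, unc-13, Snap25 and Rab3. These encode the calcium sensor of release, an active zone scaffold, a vesicle priming factor, the second plasma membrane SNARE and a vesicle GTPase. For Rab3 the nearest conservative summit was 2.02 kb from the gene, just outside the window, for Syt1 it was 2.29 kb and for Rim 2.65 kb. For unc-13, on the small chromosome 4, it was 70.6 kb away, and for Snap25, 1126 kb away. unc-13 had no ranked peak of any IDR in any of the 4 ranked lists, and Snap25 had 8 in the list of replicate 2 alone, with a highest signal of 23.5.

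Of the genes that make or load transmitters, 4 of 6 held a summit, against 4.09 from genes of their length. They held 5 gene-summit pairs, against 11.0, and 1 had a summit at an own start, against 2.60. ChAT, the enzyme that makes acetylcholine, and VAChT, the transporter that loads it, start at the same base and share 1 summit. It lay at 3R:18719876-18720062 in the first intron of ChAT, past the end of VAChT and 14.5 kb from the common start. It ranked 1255, with signals of 156 in replicate 1 and 134 in replicate 2. The start nearest to it, at 338 bp, was that of lncRNA:CR46265. VGlut, the glutamate transporter of vesicles, had 1 summit 1.73 kb upstream, at 2L:2398364-2398759, with rank 7133 and signals of 56.5 in replicate 1 and 31.2 in replicate 2. This is the summit with the overlapping ATGCATAT words, whose centres lie 54 and 56 bp from it. Vmat, which loads monoamines, had a summit 66 bp upstream of a start, at 2R:13534119-13534514 and rank 6211, and another 902 bp from a start at rank 6468. Both Vmat summits were weaker in replicate 2, at 29.9 and 31.6, than in replicate 1, at 73.7 and 66.8. In the list of replicate 2 alone, VGlut and Vmat had no summit and the count of this group was 2. Gad1, which makes GABA, and Tdc2, which makes the precursor tyramine, had none in the conservative list. Gad1 had 17 ranked peaks that did not pass, the strongest with a signal of 55.1, and its nearest conservative summit lay 2.91 kb away.

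Of the channel and pump genes, 5 of 11 held a summit, against 7.56 from genes of their length. sei, a potassium channel of the ERG class, had the strongest. It lay at 2R:24049012-24049183, 122 bp from an internal start of sei, and ranked 1354, with signals of 150 in replicate 1 and 136 in replicate 2. The other summit of sei was 46 bp from the start of tsr, the cofilin gene, and ranked 4847. Of the 200 genes of similar length, 21.0% had 2 or more summits. The Shab potassium channel had a summit 135 bp upstream of its start, at 3L:2894801-2894944 and rank 3536, with 83.4 in replicate 1 and 71.0 in replicate 2. Its intronic summit, of rank 7028, overlapped no peak in either replicate's list.

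Shal and Sh, also voltage-gated potassium channels, had summits only at the starts or exons of other genes. One summit of Shal, at 3L:19585922-19586317, lay 117 bp from the start of CG9231. The other, at 3L:19566070-19566465, was 18.3 kb from the Shal start in an exon of lncRNA:CR45916. It ranked 3673, with signals of 88.6 in replicate 1 and 70.1 in replicate 2, and carried the octamer 83 bp from the summit. Sh, the Shaker gene, had 1 summit in 139 kb of gene body. It was 14 bp from the start of CG6867, a gene inside an intron of Sh, and 8.65 kb from the nearest start of Sh. eag had a summit 119 bp upstream of its start, at X:14955160-14955555 and rank 7084, with the replication-related element TATCGATA (DRE). Its second summit, 1.39 kb upstream, was 394 bp from the start of lncRNA:CR44831. The signals of the 4 summits of Shab and eag ranged from 90.36 to 158.0, and 3 of them were below 141.4, the median of conservative peaks outside the set.

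The conservative list held no summit for para, cac, Rdl, nrv3, Shaw and slo. para is the voltage-gated sodium channel of the fly, cac the calcium channel of release, Rdl a receptor channel for GABA, nrv3 a subunit of the sodium pump, and Shaw and slo are potassium channels. para and slo held peaks in other lists. para had 3 summits in the broader list and 1 in each replicate's own list. slo had 1 in the broader list and 1 in the list of the first replicate. The strongest ranked peak had a signal of 91.9 at para and 106 at slo, which is within the range of signals of the 33 summits, but its −log10 IDR was 0.385 at para and 1.81 at slo, below the threshold of 2. cac and nrv3 had no ranked peak in any list, and in the ranked form of the conservative list Rdl had 5 and Shaw 1.

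Of the genes for adhesion and the cytoskeleton, 2 of 3 held a summit, against 2.17 from genes of their length. Dscam1, an adhesion receptor known for its very many splice forms, had 4, the most of the 32 genes. The strongest, at 2R:7381660-7382055, was 11 bp from a start of Dscam1 and ranked 2519, and its signal stood at rank 1799 in replicate 1 and at rank 5474 in replicate 2. The other 3 were intronic, between 4.35 and 29.1 kb from the nearest Dscam1 start, at ranks 4115, 4234 and 7527. Fas2, the fly relative of the neural adhesion protein NCAM, had 3. One was 39 bp from its start, at X:4206020-4206126 and rank 2520, with signals of 120 in replicate 1 and 53.4 in replicate 2. A second lay in the second intron, 33.7 kb from the start, at rank 5376. The third was past the 3' end and 69 bp from the start of GlcAT-I. futsch, the microtubule-associated protein of axons, had none, with 25 ranked peaks that did not pass.

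A summit within 500 bp of an own transcription start site (TSS) was found at 8 of the 32 genes (25.0%), against 4001 of all protein-coding genes (28.7%). Genes of similar length would give 13.8 of 32 (43.2%). The 8 genes were elav, Syn, Vmat, Shab, eag, sei, Dscam1 and Fas2. The lists of single replicates gave 6 genes for replicate 1 and 5 for replicate 2. Another 10 genes had a summit but none at an own TSS, and in 6 of these every summit was nearest to the TSS of another gene. Promoters of any gene held 16 of the 33 summits (48.5%, Wilson 95% interval 32.5 to 64.8), against 45.9% of the other 8276 conservative summits. Of the 34 gene-summit pairs, 17 were at a promoter, and in 9 of these it was the promoter of another gene and not of the neuronal gene. An own intron held 15 pairs, of which 3 were in a first intron. Counting pairs inside and outside the gene bodies, 15 lay over 5 kb from every own TSS. Introns of any gene held 42.4% of the 33 summits (27.2 to 59.2), against 36.2% of the others, and intergenic sequence held 2 of the 33, against 1240 of the other 8276. The intervals cover counting error over summits, which are not replicates.

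The peaks at neuronal genes had a lower median signal than the rest. It was 117.1, against 141.4 for the other conservative peaks. Of the 33, 13 (39.4%) were above the median rank of the whole list, and 2, both at elav, were among the first 1000. A peak called in replicate 1 was overlapped by 24 of the 33 (72.7%), against 81.6% of the other conservative peaks. For replicate 2 this was also 24 (72.7%), against 73.4%. Both replicates had called 19 of the 33 and neither had called 4. For 31 summits a signal was found within 100 bp in each replicate's ranked list. It was higher in replicate 1 for 24 of them and in replicate 2 for 7, with medians of 72.8 in replicate 1 and 53.4 in replicate 2. The scale of the signal in each replicate is not given, so this difference says nothing of binding.

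**Figure D3:**
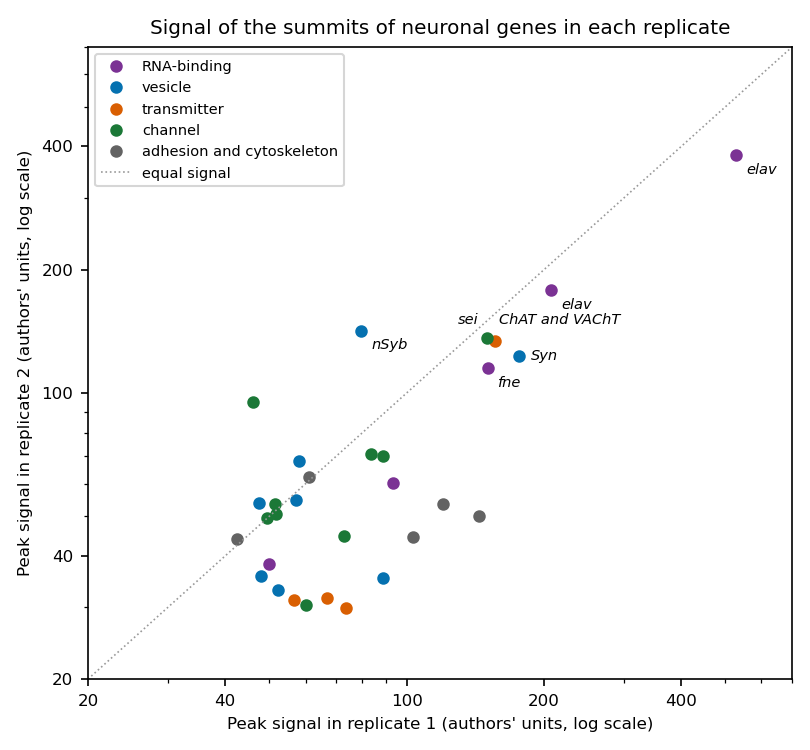
Signal of 31 summits of neuronal genes in replicate 1 (x axis) and replicate 2 (y axis), in the authors' units on log scales, coloured by role; the dotted line marks equal signal. The promoter summit of elav is far from the others, at 527 and 381, and nSyb stands above the line at 79.3 and 142.

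Ranked peaks of any IDR, a count that includes the conservative peaks, were sparse at neuronal genes. The ranked form of the conservative list holds 81179 peaks on the 6 arms, which is 6.06 ranked peaks per 10 kb. The median over the 32 genes was 1.79 ranked peaks per 10 kb of window, and that of their length-matched medians was 7.19. Of the 32, 28 were below the median of their length-matched genes, and the exceptions were Syx1A, Shal, sei and Fas2. Fas2 had 73 ranked peaks, or 9.46 per 10 kb. The genes with a conservative summit had a median of 4.79 per 10 kb (1.26 to 12.2) and those without one 0.954 (0 to 9.11), so the ranges overlap. Conservative peaks are counted among these ranked peaks, so a gene with one cannot be at 0. Part of the gap between the medians was therefore fixed in advance. Summed over the 32 windows, 34 of 368 ranked peaks (9.24%) are conservative peaks, against 10.2% over the arms. In that sum a peak in the windows of both ChAT and VAChT counts for each gene, while over the arms each peak counts once. The windows of unc-13, Snap25, Tdc2, nrv3 and cac held no peak of this ranked list, although in the ranked list of replicate 2 Snap25 had 8 and Tdc2 had 9. That is 5 genes, against 3.99 from genes of their length, so it is close to the background. Depth, mappability and chromatin state were not in the files used here, and their part in the low density was not tested.

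**Figure D4:**
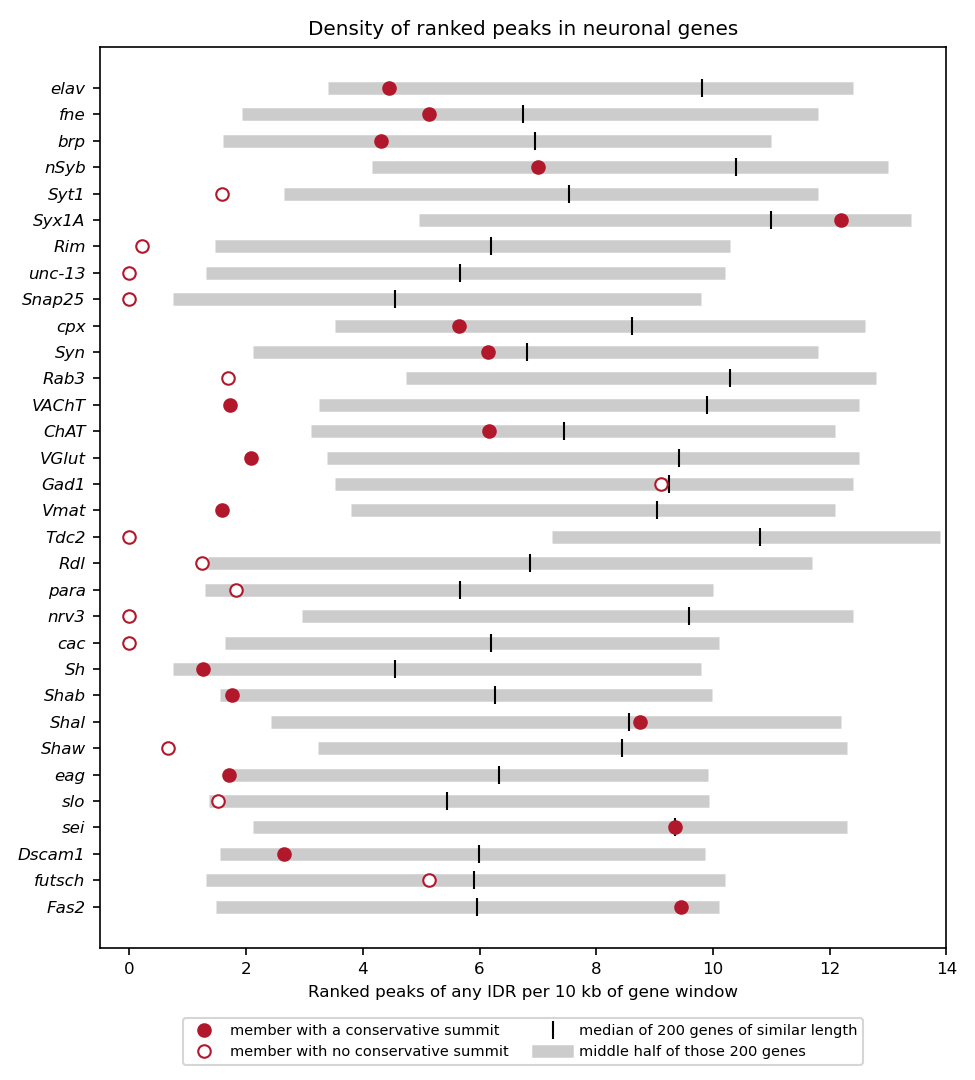
Ranked peaks of any IDR per 10 kb of window at each neuronal gene (circles, filled where the gene has a conservative summit), with the median (tick) and interquartile range (grey bar) of 200 genes of similar length. For 28 of the 32 genes the circle lies left of the tick, and 5 genes are at 0.

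POU words were found at 3 of the summits. The octamer lay within 100 bp of 2 of the 33 summits (6.06%, Wilson 95% interval 1.68 to 19.6), at Shal and at the promoter of Vmat, against 6.68% of the other summits. The peak at the promoter of Vmat overlapped no peak in the list of either replicate. The 2 strongest summits of elav hold none of the 12 words. ATGCATAT was near 1 summit, that of VGlut, or 3.03% (0.537 to 15.3) against 2.56%. ATGCTAAT was near none, with an upper Wilson bound of 10.4%, against 2.65%. TAATTA, a homeodomain word, was near 5 summits (15.2%, 6.65 to 30.9), against 15.6%. ACACTG was near 2 (6.06%, 1.68 to 19.6), against 17.6%, and GGTCACAC, the word of the promoter factor M1BP, near 0 of 33, against 3.03%. The shuffled octamer AACATGTA was near 1 summit, in an intron of Fas2, or 3.03% (0.537 to 15.3) against 0.906%, which is 1 summit fewer than the octamer itself. The reversed octamer TAAACGTA was near 0 of 33, against 0.725%. Of the remaining words, ACAATG was near 4 summits (12.1%) against 10.6%, GAGAGAG near 2 (6.06%) against 5.98%, TATCGATA near 1 (3.03%) against 3.81% and CAGGTAG near 1 (3.03%) against 0.737%. With 33 summits the intervals are wide, and for each of the 12 words the share among the other summits lies inside the interval. A word within the window is a match of letters only.

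A further 149 neuronal genes in 6 lists were counted in the same way. Together 66 (44.3%) had a summit, against 99.7 from genes of their length, and 35 had one at an own TSS, against 64.0. Transmitter receptors had 10 of 47 against 31.1 and a median of 1.99 ranked peaks per 10 kb against 8.92. Their strongest summits, at nAChRalpha5 (rank 2036), DopEcR (2372) and HisCl1 (3075), were nearest to NimC4, DopEcR and prd1. The summit at HisCl1 was also within 500 bp of a HisCl1 start. Other genes for making, clearing or taking up transmitters had 3 of 14 against 8.23, at Ace, SerT and Ddc, and none was at an own TSS. Other vesicle genes had 14 of 31 against 20.1, led by Sytbeta, Eps-15 and Nrx-1, and of these 3 the summit at Nrx-1, a presynaptic adhesion protein, was at an own start. stnA and stnB share 1 summit at a common start, and it counts for each gene.

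The remaining 3 lists were within 2 genes of the count from genes of their length, for a summit anywhere in the window. At an own TSS, 6 channel and pump genes had a summit against 12.9. The RNA-binding genes had 6 against 4.08, and the adhesion and cytoskeleton genes 11 against 8.12. Median ranked peaks per 10 kb, in the same order, were 7.22 against 8.53, 5.66 against 4.30 and 3.58 against 6.38. Other neuronal RNA-binding genes had 8 of 9 against 6.32. msi, the Musashi gene of neural precursors, had the strongest, 231 bp from an msi start at rank 47, followed by mbl (160) and ps (518). The start nearest to that summit of mbl, at 384 bp, was that of lncRNA:CR45997. pum, a repressor of translation, had 18 summits in a window of 175 kb, and the start nearest to the strongest was that of CG11997. Other channels and pumps had 19 of 30 against 20.1, led by KCNQ (rank 145), Irk1 (285) and NaCP60E (326). Ca-beta had 7 summits in a window of 51.4 kb. tipE and Teh2 share 1 summit, which counts for each gene. The strongest summit of NaCP60E was 87 bp from the start of RpL41 and that of KCNQ was nearest to mlt. Other adhesion and cytoskeleton genes had 12 of 18 against 12.7, led by Fas3 (rank 778, 9 summits in 77.3 kb), Ten-a (788) and CadN (911). The numbers of summits at pum, Ca-beta and Fas3 are given without a count from genes of their length. Differences between the lists were not tested.

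**Figure D5:**
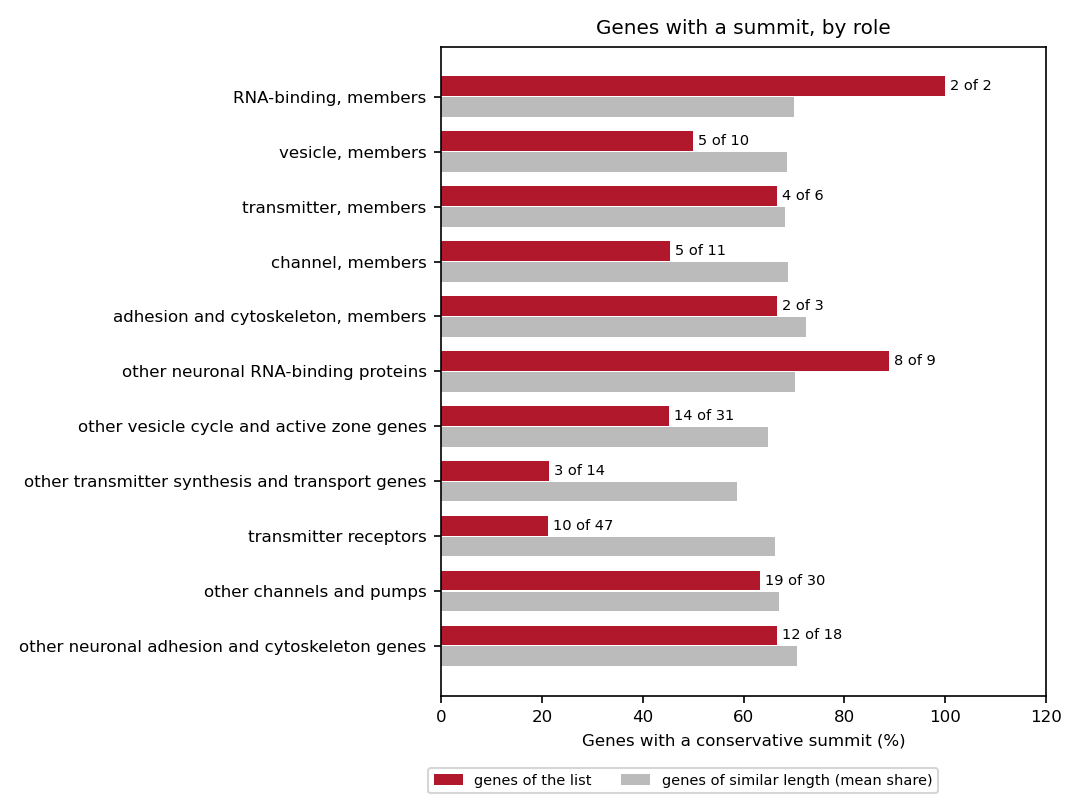
Share of genes with a conservative summit in the 5 roles of the 32 neuronal genes and in the 6 further lists (red, with counts), above the mean share in genes of similar length (grey), in percent. Transmitter receptors (10 of 47) and other transmitter genes (3 of 14) lie far below their grey bars, and the RNA-binding genes lie above theirs.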

How the data were processed

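Sonicated fragments were of 200 to 800 bp, per the labels. Per the accompanying text files, the authors made 4 thresholded and 4 ranked peak lists in dm6 coordinates, those of the series from the alignments of both replicates. Which aligner and caller made them is not given in the sources used here. The deposited lists give each peak a signal of unstated scale, a summit and a score that reaches 1000. The deposited ranked lists also give the −log10 of the IDR, which is 2 or more for every thresholded peak. Another 184 ranked peaks reach it without being in the conservative list, and enter only as an alternative. Peak lists carry no read counts, so depth is unknown.

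Summits were set against Ensembl release 115 with Python 3.11.15, pandas 2.3.3 and scipy 1.17.1, with 1 window per gene (body and 2 kb on each side). Words were read from the Release 6 genome within 100 bp of summits. Replicate signals came from the nearest summit within 100 bp in each replicate's ranked list. Counting was checked on peaks placed at known positions. The naming rule took the members with the 8 strongest summits, the 5 highest counts and all without a summit, and the other members with one are given too. Up to 3 genes by signal and 2 by count are named per further list, and the text gives those that carry its statements. Members and lists were chosen with earlier results of these data known, so no list was tested. The symbols Trh, of the other transmitter genes, and cngl, of the other channels and pumps, were not found in the annotation. Those lists were therefore counted over 14 and 30 genes.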

Additional observations from a re-analysis of the deposited data

How the results depend on the processing

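The difference between the neuronal genes and genes of their length kept its direction in all 9 alternatives. It was -3.89 with 100 and -4.16 with 400 genes of similar length. In alternatives chosen after seeing the data it was -4.58 in the broader list and -4.21 with the passing peaks added. Further ones of this kind gave -3.37 with 10 kb on each side and -6.62 in the gene body alone. Leaving out unc-13 (on chromosome 4), Snap25 and Sh (the longest) was also such an alternative, and gave -2.97. In the lists of single replicates the difference was -6.96 without replicate 1 and -3.01 without replicate 2. The values of -6.96 and -6.62 are over 1.5 times that of -4.09. Counts moved by over 1.5 times in the settings that follow. Among peaks above the median signal, 11 members had a summit, with 2 vesicle, 2 transmitter and 3 channel genes, 13 summits in all, 5 genes with one at an own TSS and 1 octamer. In the gene body alone, 11 members had one, with 2 vesicle, 2 transmitter and 3 channel genes, 17 summits and 0 octamers. With 10 kb on each side there were 8 vesicle genes, 76 summits and 4 octamers. Octamers numbered 1 in the broader list, 0 within 50 bp and 4 within 200 bp. In single replicates, transmitter genes with a summit were 2 to 4, genes with one at an own TSS 5 to 6, and octamers 1 in both. The other 43 counts were within 1.5 times the reported count. The cause of these changes was not tested. No paired analysis was possible because the samples form 1 group.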
